A study of Saccharomyces cerevisiae with 236 samples.

Results

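The strains described here each lack 1 of 10 genes that encode enzymes of the tricarboxylic acid (TCA) cycle: CIT1 (YNR001C), ACO1 (YLR304C), IDH1 (YNL037C), IDH2 (YOR136W), KGD1 (YIL125W), KGD2 (YDR148C), LSC1 (YOR142W), LSC2 (YGR244C), FUM1 (YPL262W) and MDH1 (YKL085W). They were found by ORF name among the barcodes on the array, which gave 11 of 5179 strains and 22 of 10198 tags, because LSC2 is represented by a pair of barcoded strains. Each strain carries an uptag and a downtag, short barcodes whose hybridization intensity on the TAG4 array stands for the abundance of the strain in a pool of Saccharomyces cerevisiae deletion strains grown in competition. Pools of 3 collections were grown for 5 generations in synthetic complete medium (SC), in SC lacking a single nutrient, in minimal medium (MM), in rich medium (YPD), in YPD with a drug or its solvent, or in YPG, in which glycerol at 3% is the carbon source. The collections differ in background: the auxotrophic YKOaux strains are homozygous diploids that lack functional HIS3, LEU2 and URA3 and are heterozygous for lys2Δ0 and met17Δ0, the PBprot strains are MATa haploids in which the plasmid pHLUM complements his3Δ1, leu2Δ0, ura3Δ0 and met17Δ0, and the BCprot strains are MATa haploids made prototrophic by backcrossing that carry can1Δ::STE2pr-SpHIS5, his3Δ1 and lyp1Δ0. MM for YKOaux was supplemented with histidine, leucine, methionine and uracil, whereas the prototrophs received no such supplement. The sample labels, but not the study's own list of media, add lysine to this MM, and they give more leucine than that list. The drugs were cisplatin (CIS) at 200 µM, the uncouplers CCCP at 32 µM and FCCP at 6 µM, and a quinolone compound labelled PYRQ at 125 µM, with DMSO at 2% as the solvent control of the last 3. The arrays number 4 in SC and 8 in YPD for YKOaux, 4 and 9 for PBprot, and 3 and 9 for BCprot, with 7 to 9 in DMSO and 2 to 6 in each other treatment.

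In the mitochondrial matrix the TCA cycle oxidizes acetyl-CoA and passes electrons to the respiratory chain, and some of its intermediates are withdrawn for biosynthesis, with α-ketoglutarate serving as the precursor of glutamate and, in fungi, of lysine. Growth on glycerol, which cannot be fermented by yeast, requires respiration, while glucose can be fermented without a complete cycle. Citrate synthase (CIT1), aconitase (ACO1) and the NAD-dependent isocitrate dehydrogenase, a complex of IDH1 and IDH2 subunits, lead from oxaloacetate to α-ketoglutarate. α-Ketoglutarate dehydrogenase (KGD1, KGD2 and LPD1) and succinyl-CoA ligase (LSC1 and LSC2) lead to succinate, and fumarase (FUM1) and malate dehydrogenase (MDH1) close the cycle after succinate dehydrogenase.

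A fitness defect (FD) score is the median log2 intensity of a strain in the control arrays minus its value in a treatment array, so that a positive score means depletion, and the median over treatment arrays is given with the SD between them. A defect was called at an FD score of at least 1 with an adjusted p under 0.05 over all strains tested in the comparison. A strain was tested when at least 1 of its tags exceeded, in every control array of its set, the intensity that separates hybridized from unhybridized tags, a threshold of 7.16 to 7.98 on the log2 scale. Separate samples of a group carry replicate numbers in the labels, but nothing states that they came from separate starter cultures, so the p-values measure the spread between these arrays.

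Several arrays carried signal at tags that should have been silent in them. For each collection, the tags at background in all 5 arrays of its own starting pool but above background in all arrays of both other starting pools were taken (454 for YKOaux, 140 for PBprot and 492 for BCprot). In most YKOaux and BCprot arrays few of these tags were above the threshold of the set (at most 10.1% in YKOaux SC media, 4.19% in YKOaux YPD media, 3.46% in BCprot SC media and 15.2% in BCprot YPD media). In 7 of 34 and 7 of 31 YKOaux arrays, however, 40.1% to 55.9% and 28.2% to 98.2% of them were, as were 27% to 75.8% in 17 of 40 BCprot arrays in SC media and 33.7% to 78.3% in 11 of 36 in YPD media. In PBprot the shares ran without a gap from 0.714% to 37.1%. Both YPG arrays of YKOaux (84.8% and 82.2%), 2 of 4 YPG arrays of PBprot and 2 of 4 of BCprot exceeded a limit of 20% chosen after the shares were seen. In LYS–, replicate 3 of YKOaux (55.9%), replicates 1 and 3 of PBprot (23.6% and 25.7%) and 1 of 4 BCprot arrays (75.8%) did as well. Among the tags of TCA cycle strains at background in a starting pool, some were high in such arrays and others were not. The downtag of the second LSC2 strain (YGR244C::chr00_23), at most 6.42 in the YKOaux starting pool, lay between 8.39 and 9.49 in all 7 YKOaux YPD-media arrays over the limit, against a median of 5.46 in the other 24. The FUM1 uptag, at most 5.63 in the BCprot starting pool, had a median of 7.65 in the 11 BCprot YPD-media arrays over the limit and 5.45 in the rest. The ACO1 tags and the IDH2 and KGD2 downtags passed the threshold in no PBprot array and in no BCprot YPD-media array. They were above background in the YKOaux starting pool alone, and the downtag of the second LSC2 strain in that of PBprot alone. None of these tags is therefore among those counted above. Arrays over the limit hold values that go against their labels. Calls in LYS– and YPG that rest on them are also given without them below, where other arrays remain. All BCprot arrays of GLN–, GLY–, SER– and THR– exceeded the limit (50.8% to 74.2%), so their scores have no such reading. Differences between collections in YPG, apart from that of kgd1Δ, are given with all arrays alone.

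**Figure D1:**
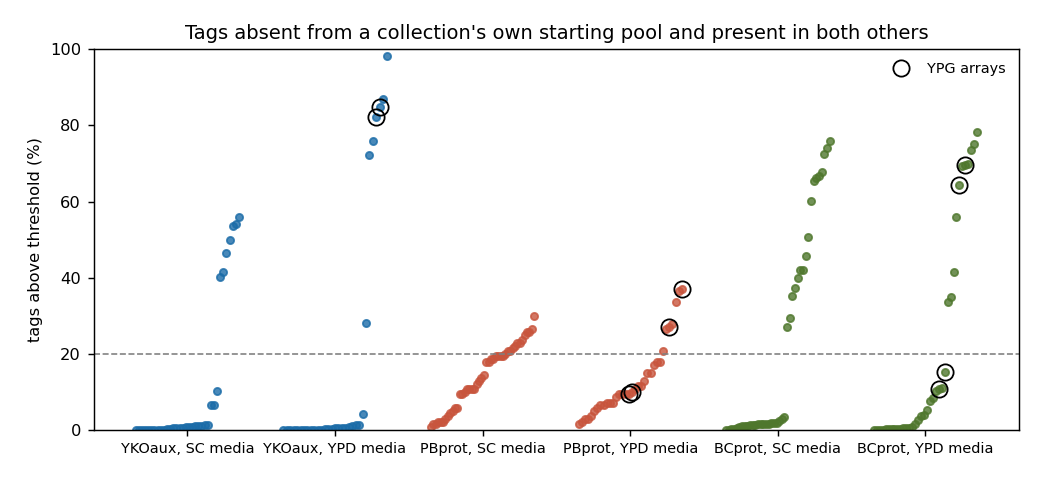
Each point is an array, and the y axis gives the percentage of the tags absent from the collection's own starting pool, but present in both others, that were above the presence threshold of the set. The dashed line marks the 20% limit and the circles the YPG arrays, of which the YKOaux arrays lie at 84.8% and 82.2%.

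The collections did not hold the same TCA cycle strains. Of the 11, 8 had a present tag in YKOaux in SC media and 6 in YPD media, 8 in PBprot in either medium, and 5 in BCprot in either medium, compared with 84.2%, 75.9%, 79.5%, 77.5%, 77.3% and 74.1% of all strains on the array in the same order. CIT1, LSC1 and MDH1 deletions were present with both tags in all SC control arrays of all collections. aco1Δ was measured in YKOaux alone: its downtag averaged 9.08 ± 0.61 (SD, n = 4) in YKOaux SC arrays, whereas both its tags stood at background in PBprot (5.16 and 5.05 in SC) and in BCprot (5.32 and 4.77), and also in the starting pools of these collections (5.07 to 5.14). In YPD-media controls of YKOaux the aco1Δ downtag was lower, at 8.03 ± 0.93 (SD, n = 17), and fell under the threshold in 2 of 17 arrays, so it was not tested there.

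The isocitrate dehydrogenase subunits split between the collections. idh1Δ was strong in PBprot and BCprot (downtag 9.77 ± 0.17, n = 4, and 9.68 ± 0.10, n = 3, in SC) but the same tag was at background in the YKOaux starting pool (5.38) and SC controls (5.73 ± 0.55, n = 4). idh2Δ was present with both tags in YKOaux in SC media and with its uptag alone in BCprot, where the downtag stood at 5.02. In PBprot its uptag averaged 8.96 in the starting pool and passed the threshold in 5 of 5 arrays, but after growth in SC it averaged 7.21 ± 1.26 (SD, n = 4) and passed it in 1 of 4 arrays. The starting-pool arrays were normalized apart from the others, so these levels are listed side by side and not compared.

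Among the later enzymes, kgd1Δ, both lsc2Δ strains and fum1Δ had no present tag in BCprot, and the FUM1 tags of its starting pool were at background (5.17 and 5.28 against a threshold of 6.82). fum1Δ was present with both tags in SC in YKOaux and PBprot. The second lsc2Δ strain was present in PBprot alone. kgd2Δ was tested in no collection, as its uptag hovered at the threshold in SC (7.70 against 7.40 in YKOaux, 8.18 against 7.98 in PBprot and 7.74 against 7.34 in BCprot) and missed it in at least 1 control array of each. An FD score therefore says nothing of KGD2 anywhere, of ACO1 in either prototroph, or of FUM1, KGD1 and LSC2 in BCprot. Nor does it speak of IDH1 in YKOaux, of IDH2 in PBprot, or of ACO1 and IDH2 in YKOaux YPD media, YPG included.

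**Figure D2:**
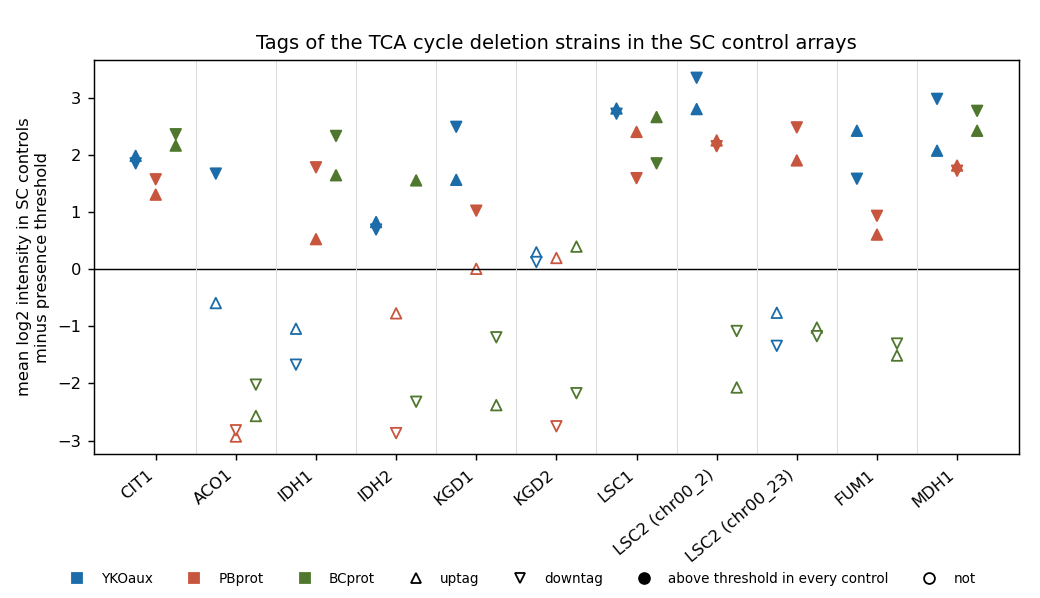
Mean log2 intensity of each tag in the SC control arrays minus the presence threshold of its set, for the 11 TCA cycle strains, with uptags and downtags as triangles and filled symbols for tags above the threshold in every control array. The aco1Δ tags of PBprot and BCprot lie at least 2 log2 units under their thresholds and all kgd2Δ tags are open.

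Across 51 comparisons against a medium or solvent control, the TCA cycle strains gave 344 FD scores, of which 16 had an absolute value of at least 1 and 10 were called as defects. Over all strains, the share called as defects ran from 0% to 4.83% by comparison. In YPG it was 2.62% in YKOaux, 4.83% in PBprot and 0.86% in BCprot. No TCA cycle strain was called higher than its control, where 0% to 0.443% of all strains were. The 10 calls fell on 6 genes, and 8 of them were in YPG. The other 2, fum1Δ in LYS– and aco1Δ in MM, were both in YKOaux and had the highest scores of the 344.

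**Figure D3:**
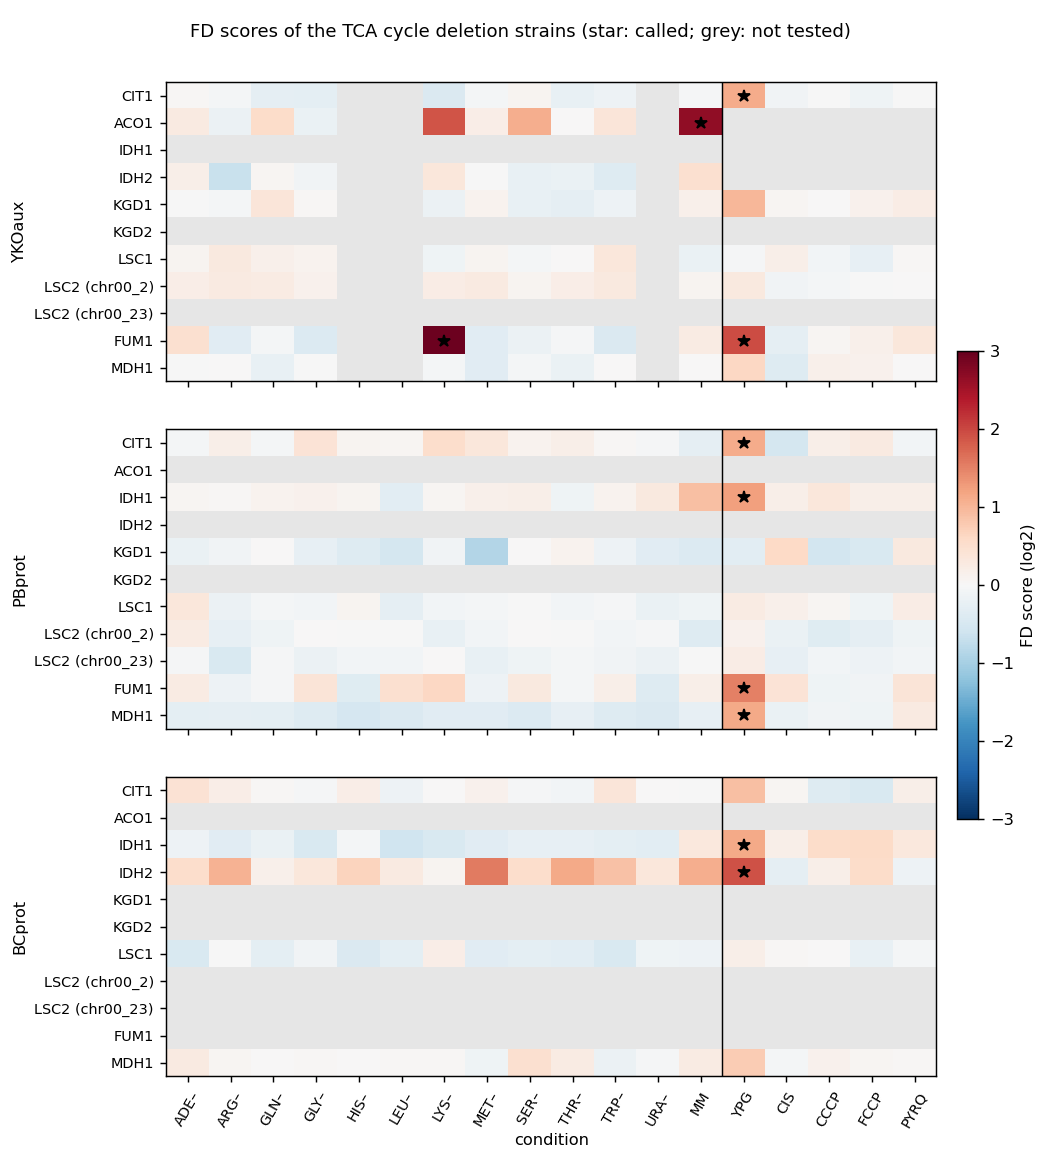
FD score (colour, log2 scale) of each TCA cycle strain (rows) in each condition (columns) for the 3 collections, with a star on each called defect and grey where a strain was not tested or a condition not run. Stars lie in the YPG column of every collection, and in LYS– and MM for YKOaux alone.

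In lysine dropout, fum1Δ was the 1 called strain of the 8 tested in YKOaux in the fit without a replicate block, where 0.413% of all strains were called. Its tag read 8.94, 8.60, 9.09 and 9.33 in the 4 SC arrays and 5.71, 6.06 and 6.88 in the 3 LYS– arrays. The groups did not overlap, every LYS– value lay under the presence threshold of 7.40, and the highest of the 3 came from the array over the limit of foreign signal. The score was number 8 of 4363 strains, and the mean was 6.82-fold lower than in SC (2.77 ± 0.25 on the log2 scale, SE). Without replicate 3 it was 3.13 (adjusted p = 6.7e-10), and the other tag of the strain gave 3.85. In PBprot the same deletion read 9.18, 8.95, 8.69 and 8.85 in SC and 9.52, 8.29 and 8.15 in LYS–. Here the groups overlapped, with 1 LYS– array above all SC arrays and 2 below them, and the second tag scored 0.05. The difference between the collections had a 95% confidence interval of 1.55 to 3.46 on the log2 scale (adjusted p = 0.00179, with 0.135% of all strains past the threshold), and 2.47 (adjusted p = 6.5e-04) without the arrays over the limit, which left 1 LYS– array in PBprot. With only the arrays of the comparison in the fit it did not pass (2.50, adjusted p = 0.126). Without PBprot replicate 1 of LYS–, the array with the high value and 23.6% of foreign tags above threshold, it was 2.07 (adjusted p = 0.0643).

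aco1Δ also stood low in YKOaux LYS–. It read 8.31, 9.01, 9.79 and 9.22 in SC against 7.14, 7.22 and 8.16 in LYS–, groups that did not overlap. The FD score of 1.89 ± 0.57 (SD, n = 3) missed the call (adjusted p = 0.105) in the fit without a replicate block. Replicate numbers did pair the arrays of this comparison (correlations of deviations from group means 0.37 to 0.74). With the replicate number as a block the score was 1.53 (adjusted p = 0.00607), which is a call. It was also called without the arrays over the limit of foreign signal, replicate 3 of LYS– among them (1.94, adjusted p = 0.0376). The same held without replicate 1 of SC (1.99, adjusted p = 0.0302). The uptag, under the threshold in 3 of 4 SC arrays, gave 1.09. The other 6 strains scored between -0.43 and 0.34 in LYS– in YKOaux, and the median over all 8 strains, 0.08, was near that of all strains, 0.01.

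Lysine is made in yeast by the α-aminoadipate pathway, which starts from α-ketoglutarate and acetyl-CoA. Of its 9 genes tested in YKOaux LYS–, 6 were called, among them LYS4 (homoaconitase, FD score 3.28 ± 1.08, SD, n = 3), LYS12 (homoisocitrate dehydrogenase, 3.44 ± 1.57) and LYS9 (a saccharopine dehydrogenase, 3.06 ± 0.43), so that fum1Δ, at 2.95, lay within their range. LYS2, LYS5 and LYS1 were the other 3, at 3.69, 3.26 and 2.56. In PBprot LYS–, 5 of 7 lysine genes were called and no TCA cycle strain of 8 was (0.462% of all strains), with scores from -0.35 to 0.61 and none at an unadjusted p under 0.05 in limma. In BCprot none of 4 lysine genes and none of 5 TCA cycle strains were called, but no strain at all was (0%), and the scores of the latter ran from -0.46 to 0.20, with none at an unadjusted p under 0.05 in limma.

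In supplemented MM the called strain was aco1Δ, which was also low in LYS–. It read 7.01, 5.78 and 6.46 in the 3 MM arrays of YKOaux against 8.31 to 9.79 in SC. All MM values lay under all SC values and under the threshold, and none of these arrays exceeded the limit of foreign signal (at most 0.661%). The FD score was 2.65 ± 0.61 (SD, n = 3, adjusted p = 4.0e-05), 6.33-fold lower on the mean and number 23 of 4363 strains, and it was the 1 call among 8 TCA cycle strains, where 1.17% of all strains were called. Its uptag, largely under the threshold in SC, scored 0.86. fum1Δ, the strain depleted in LYS–, read 8.76, 9.06 and 8.77 in MM, within its SC range, with an FD score of 0.25 ± 0.17 (SD, n = 3). None of the 9 lysine genes was called in this MM, for which the sources disagree on whether lysine was added, and none of 6 genes of glutamate synthesis and retrograde signalling was, although their median FD score was 0.37 against 0.00 over all strains.

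**Figure D4:**
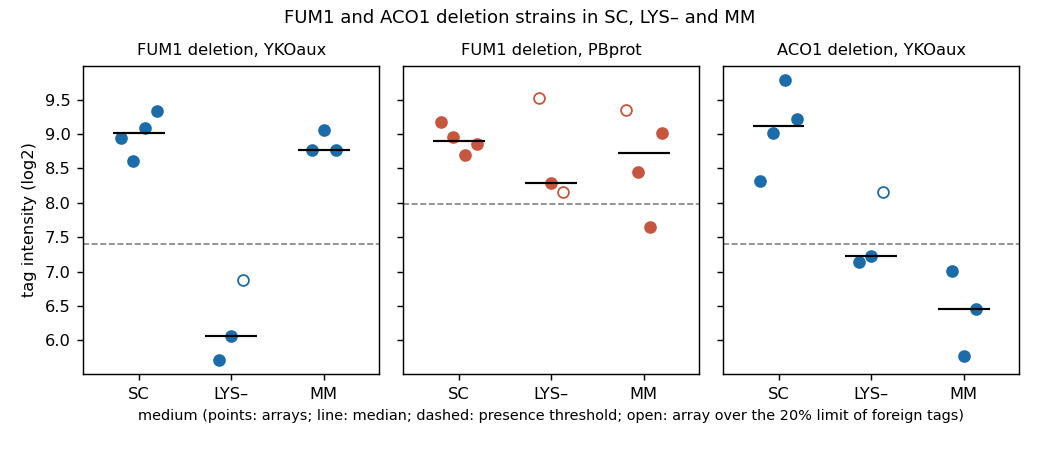
Log2 tag intensity of fum1Δ in YKOaux and PBprot and of aco1Δ in YKOaux in SC, LYS– and MM, 1 point per array, with the group median as a line, the presence threshold dashed and arrays over the 20% limit of foreign tags open. fum1Δ is low in LYS– alone in YKOaux, and aco1Δ is low in both media.

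In unsupplemented MM no TCA cycle strain was called in PBprot (0 of 8, with 4.59% of all strains called) or in BCprot (0 of 5, with 0.6%). In PBprot, idh1Δ came closest, at 0.91 ± 0.23 (SD, n = 4, adjusted p = 7.4e-04), its 4 MM arrays between 8.61 and 9.15 lying under its 4 SC arrays between 9.53 and 9.93. The other 7 strains scored between -0.40 and 0.17. At an unadjusted p under 0.05 in limma there were 2 strains in PBprot MM and 0 in BCprot MM. For fum1Δ the difference between YKOaux and PBprot in MM, taken on the means, was -0.18, with a 95% confidence interval of -1.10 to 0.74 on the log2 scale.

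In YPG, strains lacking citrate synthase, isocitrate dehydrogenase, fumarase or malate dehydrogenase were called in at least 1 collection, and those lacking succinyl-CoA ligase in none. The called strains were cit1Δ and fum1Δ in YKOaux (2 of 6, with 2.62% of all strains called), cit1Δ, idh1Δ, fum1Δ and mdh1Δ in PBprot (4 of 8, with 4.83%) and idh1Δ and idh2Δ in BCprot (2 of 5, with 0.86%). The median FD score of the TCA cycle strains was 0.80, 0.68 and 0.90, against 0.02, -0.03 and 0.11 over all strains tested.

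On the tested tags, fum1Δ gave the highest score of the YKOaux and PBprot cycle strains in YPG. In YKOaux fum1Δ had a lowest, median and highest value of 7.70, 9.27 and 9.36 in the 8 YPD arrays and read 7.14 and 7.48 in the YPG arrays. The groups did not overlap, although replicate 8 of YPD, the array with 98.2% of foreign tags above threshold, stood apart at 7.70 from the other 7 between 9.23 and 9.36. The FD score was 1.96 ± 0.24 (SD, n = 2, adjusted p = 1.8e-05) and 1.98 (adjusted p = 8.7e-11) without that array. Both YPG arrays themselves exceeded the limit of foreign signal (84.8% and 82.2%). With only arrays over the limit the score was 1.96 (adjusted p = 0.43 in limma), which is no call. In PBprot it read 7.13, 7.13, 5.74 and 7.01 in YPG against 7.94 to 9.20 in 9 YPD arrays, with no overlap and an FD score of 1.50 ± 0.68 (SD, n = 4, adjusted p = 9.1e-06). The second tags, not present in every control, gave 1.55 in YKOaux and 0.67 in PBprot. In PBprot the second tags of mdh1Δ, cit1Δ and idh1Δ gave 1.08, 0.80 and 0.73. On the means of all arrays, which the tests compare, fum1Δ was 3.44-fold lower in both collections. The difference between the 2 collections was 0.00, with a 95% confidence interval of -0.84 to 0.83.

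Strains lacking citrate synthase were called in YKOaux and PBprot. cit1Δ read 8.12 and 7.91 in YPG in YKOaux against 8.71 to 9.76 in YPD, with an FD score of 1.12 ± 0.15 (SD, n = 2, adjusted p = 2.3e-04). In PBprot it read 8.39, 8.74, 7.76 and 7.68 against 8.81 to 10.06, with a score of 1.11 ± 0.51 (SD, n = 4, adjusted p = 4.8e-05), and 0.79 without YPG replicate 3 or without replicate 4, which is no call. In BCprot it read 8.21, 8.18, 8.59 and 8.31 against 8.76 to 9.35, with a score of 0.90 ± 0.19 (SD, n = 4, adjusted p = 0.00367), under the limit for a call. The second tag, present in each collection, gave 0.74, 0.80 and 0.85, and in YKOaux the call was lost with the mean of both tags (0.95). YPG values of the tested tag lay under all YPD values in every collection, and the 95% confidence intervals of the pairwise differences were -0.52 to 0.63, -0.15 to 0.93 and -0.18 to 0.84.

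Both isocitrate dehydrogenase strains were called in YPG in each collection in which they were tested. idh1Δ read 8.62, 8.62, 8.05 and 7.31 in PBprot YPG arrays against 9.03 to 9.85 in YPD (FD score 1.23 ± 0.62, SD, n = 4, adjusted p = 1.3e-06), and 8.81, 9.04, 8.92 and 8.09 in BCprot against 9.35 to 10.18 (1.13 ± 0.43, adjusted p = 3.9e-05). No YPG value reached the YPD range in either, but in PBprot the score was 0.95, short of a call, without YPG replicate 3 or without replicate 4. idh2Δ, tested in BCprot alone and on its uptag alone, read 7.03, 6.57, 6.64 and 7.34 against 7.43 to 9.25 in YPD, where replicate 6, another array with foreign signal, gave the lowest value. Its score of 1.91 ± 0.36 (SD, n = 4, adjusted p = 1.4e-04) was the second highest of 3839 strains. The other idh1Δ tag gave 0.73 in PBprot, where it was not present in every control, and 0.79 in BCprot, where it was. With the mean of both tags no isocitrate dehydrogenase strain was called (idh1Δ 0.96 and 0.79, and idh2Δ 0.98 with its absent downtag averaged in).

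mdh1Δ, which lacks the mitochondrial isoform of malate dehydrogenase, read 8.69, 9.09, 8.50 and 7.55 in PBprot YPG arrays, below all YPD arrays at 9.50 to 10.19 (FD score 1.13 ± 0.65, SD, n = 4, adjusted p = 4.6e-06). In YKOaux and BCprot its adjusted p passed but its score did not reach 1 (0.61 ± 0.05, n = 2, adjusted p = 0.0143, and 0.77 ± 0.14, n = 4, adjusted p = 0.00221). In BCprot the highest YPG value, 8.60, just overlapped the lowest YPD value, 8.57. None of the 3 pairwise differences passed the threshold, with intervals of -1.14 to 0.02 (YKOaux minus PBprot), -0.41 to 0.54 (YKOaux minus BCprot) and 0.14 to 1.12 (PBprot minus BCprot, adjusted p = 0.163).

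For kgd1Δ, which lacks the first component of α-ketoglutarate dehydrogenase, the collections differed. In YKOaux it read 7.52 and 7.22 in YPG against a lowest, median and highest value of 7.49, 8.36 and 8.84 in YPD. That is an FD score of 0.99 ± 0.22 (SD, n = 2, adjusted p = 0.0132), just short of a call, with 1 YPG array overlapping the low YPD replicate 8. In PBprot it read 9.60, 9.30, 9.36 and 9.29 in YPG against 8.69 to 9.45 in YPD, a score of -0.32 ± 0.15 (SD, n = 4, adjusted p = 0.211). The difference of 1.26 ± 0.28 (SE) on the log2 scale had a 95% confidence interval of 0.69 to 1.83 (adjusted p = 0.0059), where 1.08% of all strains passed. The second tags gave 0.94 in YKOaux and 0.06 in PBprot. Both YKOaux YPG arrays carried foreign signal. Taking only arrays over the limit on both sides it was 1.14 (adjusted p = 0.997), without YKOaux YPG replicate 2 it was 1.10 (adjusted p = 0.249), and with the replicate block 1.38 (adjusted p = 0.179). It is 1 of 2 differences past the threshold among 230 member tests over 51 contrasts, the other being fum1Δ in LYS–, with 8 at an unadjusted p under 0.05.

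No strain without a succinyl-CoA ligase subunit was called in YPG. lsc1Δ scored -0.03, 0.24 and 0.18 in YKOaux, PBprot and BCprot, and the lsc2Δ strains 0.29 in YKOaux and 0.12 and 0.23 in PBprot, all with YPG arrays inside the YPD range or overlapping it.

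**Figure D5:**
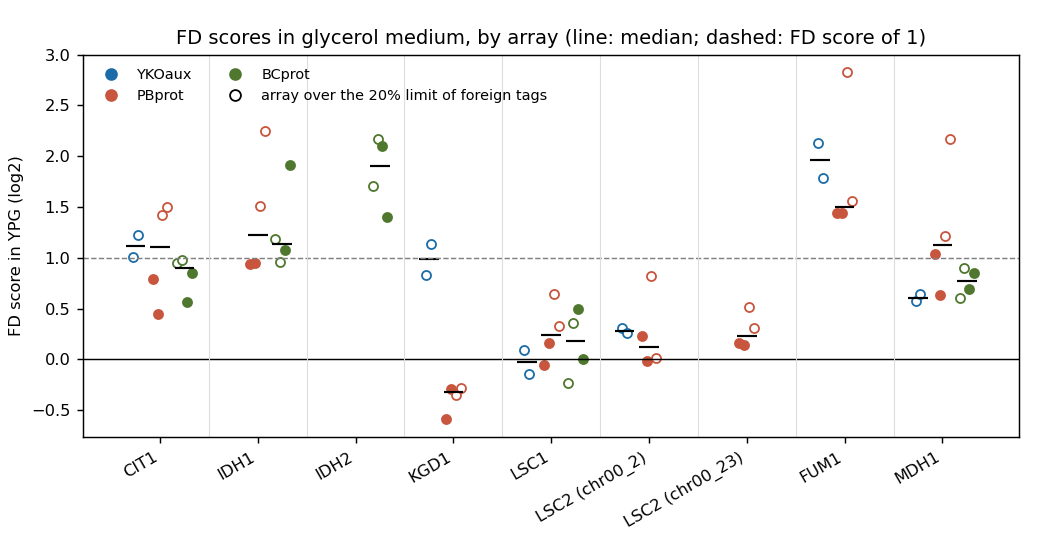
FD score in YPG (log2 scale) of each TCA cycle strain tested, 1 point per array, coloured by collection, with the median as a line, open symbols for arrays over the 20% limit of foreign tags and a dashed line at 1. cit1Δ, idh1Δ, idh2Δ, fum1Δ and mdh1Δ lie above 0 in every array, the lsc1Δ and lsc2Δ strains lie around 0, and kgd1Δ is positive in YKOaux and negative in PBprot.

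The YPG scores were also read within arrays of 1 kind. With only arrays under the limit, BCprot kept idh1Δ (1.56, adjusted p = 0.00203) and idh2Δ (1.82, adjusted p = 0.00101), with 2 YPG and 5 YPD arrays. Of all strains 1.93% were called in that fit. These 2 YPG arrays still had shares of 15.2% and 10.6%, against 0% to 11% in the 5 YPD arrays. In PBprot, with 2 YPG arrays (10% and 9.29%) and 7 YPD arrays (1.43% to 17.9%), 4.51% of all strains were called. Of the TCA cycle strains fum1Δ alone was (1.44, adjusted p = 3.1e-04), and mdh1Δ, idh1Δ and cit1Δ scored 0.83, 0.94 and 0.59, with adjusted p of 0.00273, 0.00242 and 0.0217. YKOaux had no YPG array under the limit. With only arrays over it, fum1Δ and cit1Δ in YKOaux scored 1.96 and 1.07, but no strain of 3929 was called (adjusted p = 0.43 and 0.253), and in BCprot idh1Δ and idh2Δ scored 1.02 and 1.79, where likewise no strain of 3839 was (adjusted p = 0.113 and 0.13). In PBprot, the 2 YPG arrays over it, set against only 2 YPD arrays, gave 1.90 for cit1Δ, 2.49 for fum1Δ, 1.93 for idh1Δ and 1.91 for mdh1Δ. All were called, with adjusted p between 0.0184 and 0.0418, where 3.41% of all strains were. The part of the foreign signal in the scores was not tested.

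Among related genes in YPG, succinate dehydrogenase, the enzyme between succinyl-CoA ligase and fumarase, had 4 of 5 strains called in PBprot: SDH5 (1.58 ± 1.08), SDH2 (1.41 ± 0.35), SDH6 (1.22 ± 0.23) and SDH7 (1.22 ± 0.79, all SD, n = 4). It had 1 of 6 called in BCprot (SDH6, 1.19 ± 0.37) and none of 4 in YKOaux, where the median FD score of the list was 0.48. LPD1, the dihydrolipoyl dehydrogenase shared by α-ketoglutarate and pyruvate dehydrogenase, was called in PBprot at 1.52 ± 0.50 (SD, n = 4, adjusted p = 2.9e-09), while kgd1Δ in the same arrays was not. Of the pyruvate dehydrogenase genes, PDA1 (1.12 ± 0.19) and PDB1 (1.00 ± 0.29) were called in PBprot, 2 of 3 tested, and none in YKOaux or BCprot. No gene of lysine synthesis, or of glutamate synthesis and retrograde signalling, was called in YPG in any collection.

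Outside LYS–, MM and YPG no TCA cycle strain was called. In the other dropouts the 8 YKOaux strains gave 64 scores from -0.67 (idh2Δ in ARG–) to 1.10 (aco1Δ in SER–), the 8 PBprot strains 88 scores from -0.87 (kgd1Δ in MET–) to 0.49 (fum1Δ in LEU–) and the 5 BCprot strains 55 scores from -0.60 (idh1Δ in LEU–) to 1.56 (idh2Δ in MET–). Over all strains 0.129%, 0.749% and 0.0386% of such tests were calls in either direction. In YKOaux, defects were called for 0.16% of all strains in ADE–, 0.298% in ARG–, 0.115% in MET–, 0.0458% in THR– and 0.39% in TRP–. In PBprot the shares were highest for leucine (2.7%), uracil (2.24%) and histidine (2.16%) dropout, with 0.17% in MET–, and 0.0486% to 0.462% in the rest apart from GLN– and GLY– (0%), with 0.0486% in both SER– and THR–. In BCprot they reached 0.125%, with 0.075% in ADE– and LEU–. At an unadjusted p under 0.05 in limma there were 1, 2 and 1 of the members' tests. The drugs gave 24, 32 and 20 scores between -0.56 and 0.59, with 1.68%, 2.12% and 0.755% of all tests called. All strains gave the most defects with CCCP and FCCP in YKOaux (2.85% and 2.32%) and in PBprot (4.16% and 2.91%), and with cisplatin in BCprot (1.54%, against 0.993% in YKOaux and 1.32% in PBprot). The highest, kgd1Δ in PBprot with cisplatin (0.59 ± 0.29, SD, n = 4, adjusted p = 0.0204), was the 1 drug score whose adjusted p passed, and 1, 4 and 2 passed unadjusted. Neither uncoupler depleted a TCA cycle strain by an FD score over 0.58. DMSO against YPD gave 19 scores from -0.34 to 0.24, none of them called, with 0.255%, 0.0249% and 0% of all strains called and 1, 0 and 0 member tests at an unadjusted p under 0.05 in limma.

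The scores of idh2Δ at or above 1 in BCprot dropouts and MM (1.04 in ARG–, 1.56 in MET–, 1.14 in THR– and 1.09 in MM) came with controls that disagreed: 7.41 in SC replicate 1 against 9.68 and 9.61 in replicates 3 and 4. The low replicate 1 recurred in ARG– (7.69, against 8.56 and 9.13), MET– (7.41, against 8.69), THR– (7.99, against 8.94) and MM (7.08, against 8.21 to 9.00). None of these scores had an adjusted p under 0.05, and the arrays numbered 1 lay between 7.08 and 7.99 in these media. Both THR– arrays exceeded the limit of foreign signal (74.2% and 72.4%).

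The members' scores over comparisons were set against each other as a description, since the points share control arrays. Over 15 comparisons in YKOaux, Pearson's r between strains ran from -0.45 to 0.77 over 15 pairs (median 0.20), highest for kgd1Δ and cit1Δ (0.77) and for mdh1Δ and cit1Δ (0.74). Over 18 comparisons it ran from -0.40 to 0.71 over 28 pairs in PBprot, where kgd1Δ and cit1Δ gave -0.40, and from -0.12 to 0.54 over 10 pairs in BCprot, where the 2 isocitrate dehydrogenase strains gave 0.24. Of 3913 strains, those whose YKOaux scores were most like those of fum1Δ were APT1 (adenine phosphoribosyltransferase, r = 0.92), LYS1 (0.83), LYS9 (0.81), LYS4 (0.80) and LYS2 (0.77). Without LYS– these values became 0.79, 0.43, 0.42, 0.25 and 0.02, and the r of apt1Δ, which scored 2.45 in LYS– and 1.23 in YPG, was 0.18 without either medium.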

How the data were processed

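Genomic DNA barcodes were amplified after growth and hybridized to TAG4 arrays. The authors masked artefacts, normalized uptags and downtags apart to their median within each of 6 sets (collection by SC or YPD media), and deposited log2 intensity values per tag. The methods also describe ComBat batch correction, and the deposited table does not say whether its log2 values precede it. The table holds 236 arrays with values from 3.61 to 14.67, of which 218 entered comparisons. Arrays have no read depth, so precision is limited by their number. The 15 starting-pool arrays, 1 array of MM with uracil and 2 arrays whose labels contradict each other were kept apart.

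Presence was set with a 2-component Gaussian mixture fitted to the control arrays of each set (posterior over 0.5 in every control array). A strain entered the tests if either tag was present, through whichever present tag varied least (coefficient of variation) among the controls, and the stricter reading, in which every tag must be present, is an alternative. Each set was fitted across all its strains with limma 3.58.1 in R 4.3.3 (lmFit and eBayes, 1 mean per condition), with Benjamini-Hochberg adjustment over the strains of a comparison. Dropouts and MM were compared with SC, YPG, cisplatin and DMSO with YPD, and CCCP, FCCP and PYRQ with DMSO. Differences between collections were contrasts of 2 such differences over the strains tested in both. The fits were tested on simulated data with independent errors between arrays. These held neither replicate pairing nor foreign signal, so they cannot show how the fits behave under either. The TCA cycle genes and the gene lists were chosen with earlier results of these data known. The text names all 10 genes, gives values by array for called strains and for the highest scores of uncalled ones, the 5 strains most like fum1Δ, and list genes called where a TCA cycle strain was called. The result of 1 list gene is not reported here. Strain identifiers were matched to symbols in the RefSeq gene table.

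Replicate numbers paired treatment and control arrays (at least 3 pairs, and every pair's correlation of deviations from group means over 0.1) in 8 of 9 YKOaux and 12 of 13 PBprot SC-media comparisons, MM being the exception in both, and in none in YPD media. The main fits did not use this pairing. Of the 9 BCprot SC-media comparisons 1 had 3 pairs, MM, and its numbers did not pair the arrays. The others had 2 pairs each, too few for this rule, with correlations of 0.30 to 0.77. Figures were drawn with matplotlib 3.10.9.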

Additional observations from a re-analysis of the deposited data

Results flagged for a closer look

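Values that stood apart from their group by Dixon's test were found in 5 of 40 groups of 4 to 9 arrays, and chance flags about 1 group in 20. Among the YPD controls of YKOaux, replicate 8 was low for fum1Δ (7.70, with the next array at 9.23) and for the first lsc2Δ strain (9.15, with the next at 10.10), and 98.2% of the tags absent from the YKOaux starting pool and present in both others were above threshold in it. Replicate 6 of the BCprot YPD controls was low for idh2Δ (7.43, with the next at 8.38), and that share was 78.3% in it. Replicate 1 of the PBprot YPD controls was high for cit1Δ (10.06, with the next at 9.24; share 27.9%), and replicate 3 of PBprot YPG was low for fum1Δ (5.74, with the next at 7.01; share 37.1%). The cause of these shares was not tested.

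By the test of the difference itself, the scores of YKOaux and PBprot differed for fum1Δ in LYS– (2.50 on the log2 scale, adjusted p = 0.00179 in limma) and for kgd1Δ in YPG (1.26, adjusted p = 0.0059), but neither held under all alternatives. The former had an adjusted p of 0.126 with only the arrays of the comparison in the fit and 0.0643 without PBprot replicate 1 of LYS–. The latter had 0.179 with the replicate block (1.38), 0.249 without YKOaux replicate 2 of YPG and 0.997 with only arrays over the limit of foreign tags.

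In the starting pools, which enter no comparison, some tags were above background for strains that could not be tested after growth. They were idh2Δ in PBprot (uptag 8.96), kgd2Δ in YKOaux (downtag 7.18) and BCprot (uptag 7.26), and, for strains untested in YPD media alone, aco1Δ (downtag 10.13) and idh2Δ (uptag 7.84) in YKOaux.

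The single BCprot array of MM with uracil lay outside the range of the 3 SC controls for idh2Δ (6.52, controls 7.41 to 9.68), idh1Δ (8.81, controls 9.57 to 9.77) and mdh1Δ (10.39, controls 9.62 to 9.99). Of the 2 BCprot arrays with contradictory labels, the one named SC whose protocol names SC-Met lay just above the controls for idh1Δ (10).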

How the results depend on the processing

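The number of called TCA cycle strains was 2 in YKOaux SC media, 2 in YKOaux YPD media, 4 in PBprot YPD media and 2 in BCprot YPD media, and 2 differences between collections passed. With every tag of a strain required to be present these became 1, 1, 2, 1 and 1, with fewer strains tested. A posterior over 0.9 left 1 in BCprot YPD media. With no filter on presence 2 BCprot strains were called higher than control and 11 differences passed. This setting admits strains with no present tag, among them aco1Δ, kgd1Δ, fum1Δ and both lsc2Δ strains in BCprot. The share over all strains was not counted for it, so these counts are not read as results about the deletions. The mean of both tags gave 2 in PBprot YPD media and 0 in BCprot. Without the arrays over the limit of foreign tags, an alternative chosen after seeing the data, the counts were 0 in YKOaux YPD media (no YPG array left), 1 in PBprot YPD media and 1 difference, and with only such arrays in YPG 0 in YKOaux and 0 in BCprot. The replicate block left 1 call in YKOaux YPD media, where the numbers did not pair the arrays. The call lost there was that of cit1Δ (FD score 1.22, adjusted p = 0.0585). The block also left 1 difference, with kgd1Δ in YPG no longer past the threshold at 1.38 (adjusted p = 0.179). Besides these it changed the call of aco1Δ in LYS– alone (1.53). Fitting only the arrays of a comparison left 1 difference, with fum1Δ in LYS– at 2.50 (adjusted p = 0.126), and with only arrays over the limit kgd1Δ was 1.14. Leaving out 1 array at a time gave 2 to 4 calls in PBprot YPD media, differences of 2.07 to 2.84 for fum1Δ and of 1.10 to 1.41 for kgd1Δ. aco1Δ in LYS– was also called with the mean of tags (1.40) and after quantile normalization (1.53), and fum1Δ in PBprot YPG was not with no filter (0.67, adjusted p = 0.0572). The scores of idh2Δ in BCprot SC media changed sign with no filter, which took the absent downtag (ARG– -0.08, MET– -0.05, THR– -0.36, MM -0.28), without the arrays over the limit (MM -0.01), without SC replicate 3 (ARG– -0.05, MM -0.01) and without SC replicate 4 (ARG– -0.01), but not without SC replicate 1 (ARG– 1.08, MM 1.12). The cause of the other changes was not tested. Of the FD scores under alternatives, 18 lost the call, 6 gained it and 8 changed sign, and the rest kept direction and side of the threshold.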

Other observations

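In the 2 BCprot arrays whose labels contradict each other, cit1Δ (9.48 and 9.39), idh2Δ (9.24 and 8.83), lsc1Δ (9.13 and 9.43) and mdh1Δ (9.79 and 9.76) lay within the range of the 3 SC controls. In the BCprot array of MM with uracil, cit1Δ (9.23) and lsc1Δ (9.24) did as well.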
